A study of Mus musculus with 24 samples.

Results

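The genes described are 46 mouse genes that act in cell division: cyclins and the kinase Cdk1, mitotic kinases, spindle motors, kinetochore subunits, cytokinesis proteins and proteins that shape chromosomes. They were taken as a list of gene symbols and found by symbol in the deposited count table, which holds 24421 genes. All 46 were present, and all 46 were among the 12850 genes that passed the filter on low counts and were tested. In a dividing cell, cyclin A and cyclin B switch on Cdk1 and drive the cell into mitosis. Microtubules then attach to each chromosome at the kinetochore, and a checkpoint holds the cell until every chromosome is attached. The anaphase-promoting complex with Cdc20 destroys the B cyclins and releases the chromosomes, and cytokinesis separates the daughter cells. Transcripts of most of these genes are made in late S phase, G2 and mitosis and are low in resting cells. In bone marrow, large pre-B cells proliferate in response to interleukin 7 and the pre-B cell receptor, while small pre-B, immature and mature B cells are largely resting.

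RNA was measured in 24 libraries from B lineage cells sorted from the bone marrow of 8 mice, each mouse giving 1 library from each of 3 sorts, namely pro-B with pre-B cells (labelled proBpreB), immature B cells and mature B cells. All mice were MB1 Cre +/WT, so every group carried 1 copy of a Cre recombinase that is expressed from the Cd79a locus in B lineage cells. In the mice labelled VHL flox/flox (4 mice), both copies of Vhl could be deleted by the recombinase, and in those labelled VHL flox/WT (4 mice) 1 copy could be deleted. Vhl encodes the subunit of a ubiquitin ligase that recognises hydroxylated hypoxia-inducible factors, which are then degraded. No group without Cre or without a floxed allele was included, and the labels name neither the surface markers of the sorts nor the age of the mice. Total counts ran from 7850186 to 11863949 a library, so 3 counts, the least taken as detection, corresponded to 0.253 to 0.382 counts per 1000000 counts (CPM). Levels are given as CPM scaled by the trimmed mean of M-values (TMM). The lowest count of any of the 46 genes in any library was 13.

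Vhl transcripts were lower in flox/flox libraries of every population, with log2 changes of -1.32 in proBpreB cells (adjusted p = 0.000247), -2.66 in immature cells (adjusted p = 2.61e-09) and -1.94 in mature cells (adjusted p = 6.24e-07) by edgeR's quasi-likelihood test. No Vhl library of one genotype overlapped the other genotype. The 8 B lineage markers summed to 3768 to 10385 CPM in the 24 libraries. Pro-B and pre-B markers were highest in the proBpreB sort (3178 to 4390 CPM) and mature B markers were highest in the mature sort (16975 to 25549 CPM). Markers of other bone marrow cells were also present: those of neutrophils and monocytes summed to 4040 to 20421 CPM and erythroid markers to 1668 to 21217 CPM.

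Many mitotic genes share a pair of short promoter elements, the CCAAT box bound by NF-Y and the cell cycle genes homology region (CHR), which the DREAM and MuvB complexes bind. RefSeq promoters of 300 bases, from 250 before to 50 after the first start of each gene on GRCm38.p6, matched 38 of the 46 genes, Casc5 under its newer symbol Knl1. Ccna2, Aurkb, Kif20a, Spc24, Tpx2, Shcbp1, Cdc25c and Dlgap5 were not matched. The CCAAT box was searched as CCAAT, which reads ATTGG on the other strand. The CHR was searched as TTTGAA, which reads TTCAAA on the other strand. A variant CHR was searched as TTCGAA. Both strands were read, the palindrome TTCGAA was counted once, and 1 pair of a CCAAT match and a CHR match overlapped. Positions count bases from the start, which is position 0. The stretches printed run 5′ to 3′ along the gene's own strand from 120 bases before the start to 30 bases at and after it. Capitals mark the matches. They are examples of the arrangements found. Ccnb2, Cdk1, Cdc20, Top2a and Kif23 have at least 1 CCAAT match upstream of a CHR match near the start. Cenpa is the gene whose RNA changed least in immature cells, and Birc5 had a match to neither element. Genes with a CHR match alone, such as Ndc80, or a CCAAT match alone, such as Ccnb1, are not printed. The printed genes were chosen after the matches were seen.
Ccnb2 (chr9:70421525-70421674, minus strand): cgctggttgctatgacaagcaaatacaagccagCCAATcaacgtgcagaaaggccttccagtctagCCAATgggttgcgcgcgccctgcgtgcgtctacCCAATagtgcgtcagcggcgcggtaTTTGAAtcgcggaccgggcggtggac
Cdk1 (chr10:69352883-69353032, minus strand): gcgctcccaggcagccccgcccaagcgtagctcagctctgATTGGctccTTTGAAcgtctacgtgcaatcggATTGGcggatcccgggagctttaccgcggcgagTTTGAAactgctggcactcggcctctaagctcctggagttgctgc
Cdc20 (chr4:118437314-118437463, minus strand): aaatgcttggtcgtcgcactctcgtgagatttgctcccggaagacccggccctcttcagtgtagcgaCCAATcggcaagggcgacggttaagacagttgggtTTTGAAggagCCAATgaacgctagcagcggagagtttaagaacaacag
Top2a (chr11:99024160-99024309, minus strand): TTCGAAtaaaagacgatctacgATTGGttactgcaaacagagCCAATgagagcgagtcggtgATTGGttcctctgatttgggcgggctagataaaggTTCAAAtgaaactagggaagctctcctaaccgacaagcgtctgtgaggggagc
Kif23 (chr9:61946770-61946919, minus strand): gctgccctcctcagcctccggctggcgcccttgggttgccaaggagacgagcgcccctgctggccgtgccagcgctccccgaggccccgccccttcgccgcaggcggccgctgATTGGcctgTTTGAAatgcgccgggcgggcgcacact
Cenpa (chr5:30666766-30666915, plus strand): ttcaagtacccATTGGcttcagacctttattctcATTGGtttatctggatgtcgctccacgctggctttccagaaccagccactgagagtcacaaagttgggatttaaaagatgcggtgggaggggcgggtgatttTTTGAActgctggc
Birc5 (chr11:117849117-117849266, plus strand): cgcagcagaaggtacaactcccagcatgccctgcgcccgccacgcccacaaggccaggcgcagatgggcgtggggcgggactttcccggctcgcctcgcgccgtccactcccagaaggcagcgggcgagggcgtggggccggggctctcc

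Of the 38 promoters, 31 (81.6%) held a CHR match, against 19.4% of all 27025 RefSeq promoters of the same length. A CCAAT match was present in 30 (78.9%), against 37.9% of all promoters, and both were present in 26 (68.4%), against 7.7%. Of the 43 CHR matches, 31 lay between position -100 and position 50, with a median position of -15. The 73 CCAAT matches had a median position of -67. Matches in a window of 300 bases are letters and not shown binding sites. The 7 genes with no CHR match in the window were Ccnb1, Birc5, Cenpe, Nuf2, Nusap1, Cks2 and Nek2.

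**Figure D1:**
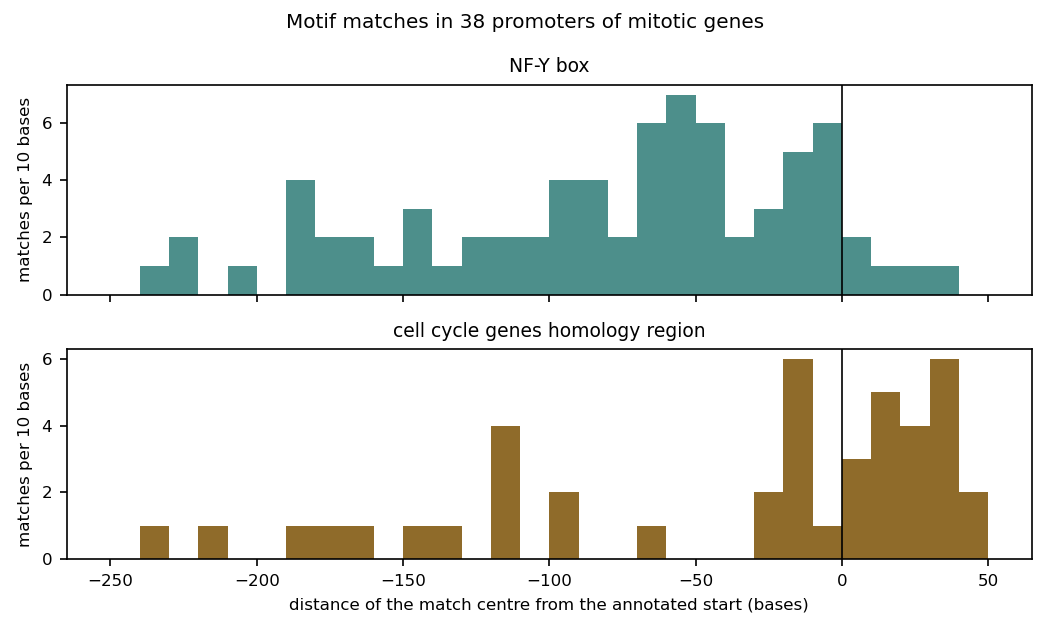
Histograms of the positions of the CCAAT and CHR matches in the promoters of the 38 matched genes (1 panel a motif), in bases from the annotated start. The CHR matches gather near the start (median position -15) and the CCAAT matches lie further upstream (median position -67).

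The first question was how the mitotic genes ran through the 3 populations in the control mice. In flox/WT mice the 46 genes together made up 9118 ± 1282 CPM of proBpreB RNA, 4231 ± 822 CPM of immature RNA and 850.1 ± 249 CPM of mature RNA (mean ± SD, n = 4), a drop of 2.15-fold and then of 4.98-fold. From proBpreB to immature cells 44 of 46 genes fell (edgeR's quasi-likelihood test, Benjamini-Hochberg adjusted p under 0.05), where 25.4% of the 12850 genes tested fell. The median log2 change was -1.15. Mki67, the Ki-67 antigen (log2 change -0.85, adjusted p = 0.127), and the kinase gene Plk1 (-0.73, adjusted p = 0.0911) did not pass. The largest drops in each role included Dlgap5, a spindle assembly factor (-1.81), Ccnb1, cyclin B1 (-1.57), and Cenpa, the centromeric histone H3 variant (-1.54). From immature to mature cells all 46 fell, where 17.1% of the genes tested fell, with a median of -2.46. This drop was greatest for Cenpf, a kinetochore protein (-3.30), Mki67 (-3.17), Nek2, a centrosomal kinase (-3.13), and Kif11, the motor that pushes spindle poles apart (-3.11). It was least for Cenpa (-0.74). In these bulk samples fewer dividing cells and less RNA per cell cannot be told apart.

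In flox/flox mice the summed level was not lowest in mature cells. The 46 genes made up 9078.5 ± 835 CPM in proBpreB cells, 1247 ± 168 CPM in immature cells and 1372 ± 193 CPM in mature cells (mean ± SD, n = 4). All 46 fell from proBpreB to immature cells, where 27.2% of the genes tested fell, with a median log2 change of -2.92 and a range from -3.87 for Cenpf to -1.76 for Cenpa. Between immature and mature cells, 43 of 46 did not pass the test and the median was 0.13. The 3 that passed were higher in mature cells, where 12.9% of the genes tested were higher. They were the kinetochore genes Spc25 (0.66, adjusted p = 0.000878) and Ndc80 (0.54, adjusted p = 0.00147) and the cytokinesis gene Ect2 (0.55, adjusted p = 0.0451). With the mouse as a block 2 were called. As a share of the flox/WT proBpreB level, the summed level was 46.4% in immature and 9.32% in mature flox/WT cells, and 13.7% and 15.0% in the same populations of flox/flox mice.

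**Figure D2:**
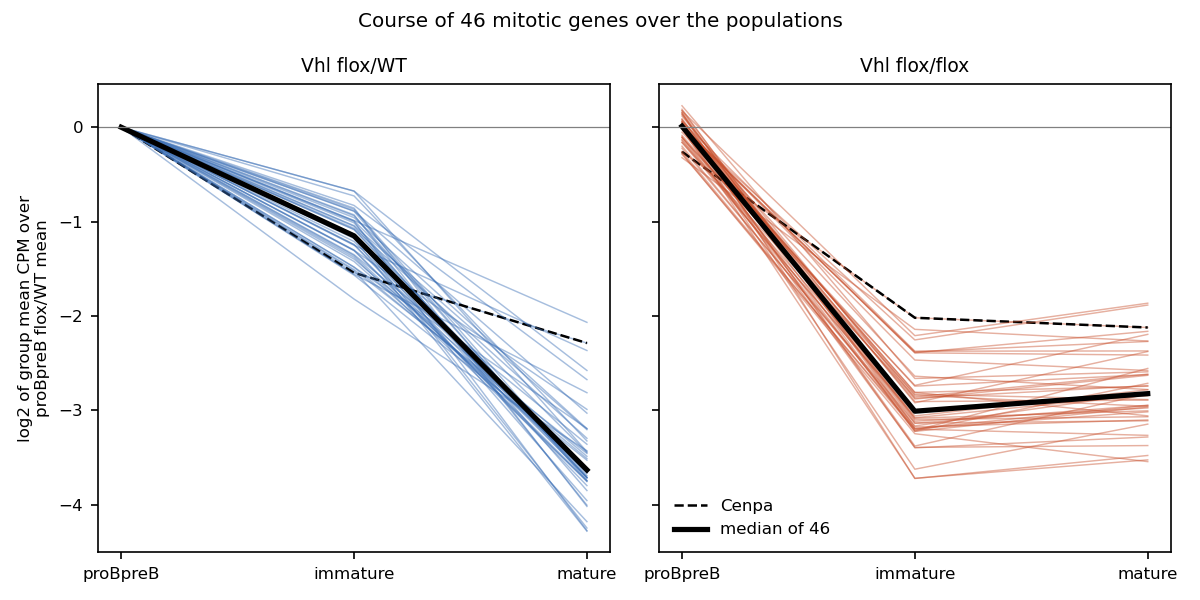
Group mean CPM of each of the 46 genes (thin lines) over its proBpreB flox/WT mean, on a log2 axis, in the proBpreB, immature and mature populations of flox/WT and flox/flox mice (4 libraries a point), with the median (thick line) and Cenpa (dashed). In flox/WT mice the summed level stepped down from 9118 to 4231 to 850.1 CPM, and in flox/flox mice it dropped from 9078.5 to 1247 CPM and then stood at 1372 CPM.

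In proBpreB cells none of the 46 genes was called different between the genotypes. Their summed level was 10030, 10362, 8378 and 7703 CPM in the 4 flox/WT libraries and 8994, 8492, 8544 and 10284 CPM in the 4 flox/flox libraries, so the ranges overlapped. None passed the test in either direction, where 6.13% of all genes tested did. DESeq2 called 0 of them as well. With edgeR, 1 of the 46 was under 0.05 before adjustment, Cks2, which encodes a Cdk1-binding subunit, and the smallest adjusted p was 0.269. The median log2 change was 0.01, with 26 genes above 0 and 20 below, and the range ran from -0.32 for Cks2 to 0.23 for Bub1b, a checkpoint kinase homologue. For Top2a, the topoisomerase that untangles sister chromatids, flox/WT libraries gave 967, 978, 676 and 606 CPM and flox/flox libraries 842, 812, 801 and 977 CPM. Cdk1 gave 184, 197, 229 and 209.8 CPM and 190.0, 184, 177 and 208 CPM in the same order. Spc25 was the 1 gene whose libraries did not overlap, being lower in flox/flox mice (-0.26, adjusted p = 0.280), where 7.6% of all genes were lower without overlap. Per length of exon, the level of these genes covered a wide range. The length was the union of all annotated exons of a gene, which can exceed its main transcript, so the ranking depends on the annotation. In flox/WT proBpreB cells Cks2 (201 ± 49.2 CPM per kb), Ccnb2, cyclin B2 (165 ± 5.93), and Cdc20 (143 ± 13.4) were highest, and Cdc25c, a phosphatase that activates Cdk1 (7.79 ± 1.48), and Cenpf (8.68 ± 2.02) were lowest (mean ± SD, n = 4). Cks2 and Ccnb2 did not differ beyond the spread of Cks2, nor did Cdc25c and Cenpf.

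In immature cells all 46 genes were called lower in flox/flox mice. The median log2 change was -1.79, which is 3.46-fold lower, where 10.5% of all genes tested were lower and the median over all genes was 0.00. Summed levels were 3397, 3654, 4980 and 4894 CPM in flox/WT libraries and 1179, 1043, 1359 and 1408 CPM in flox/flox libraries, a ratio of 29.5%. The libraries of the genotypes did not overlap for 45 of the 46 genes, where 11.5% of all genes were lower without overlap. Changes ran from -2.86 (Mki67) to -0.48 (Cenpa), and the largest adjusted p among the 46 was 0.0121. The members of all 9 roles fell, with role medians from -1.57 (cyclins, Cdk1 and their regulators) to -1.90 (chromosome structure).

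**Figure D3:**
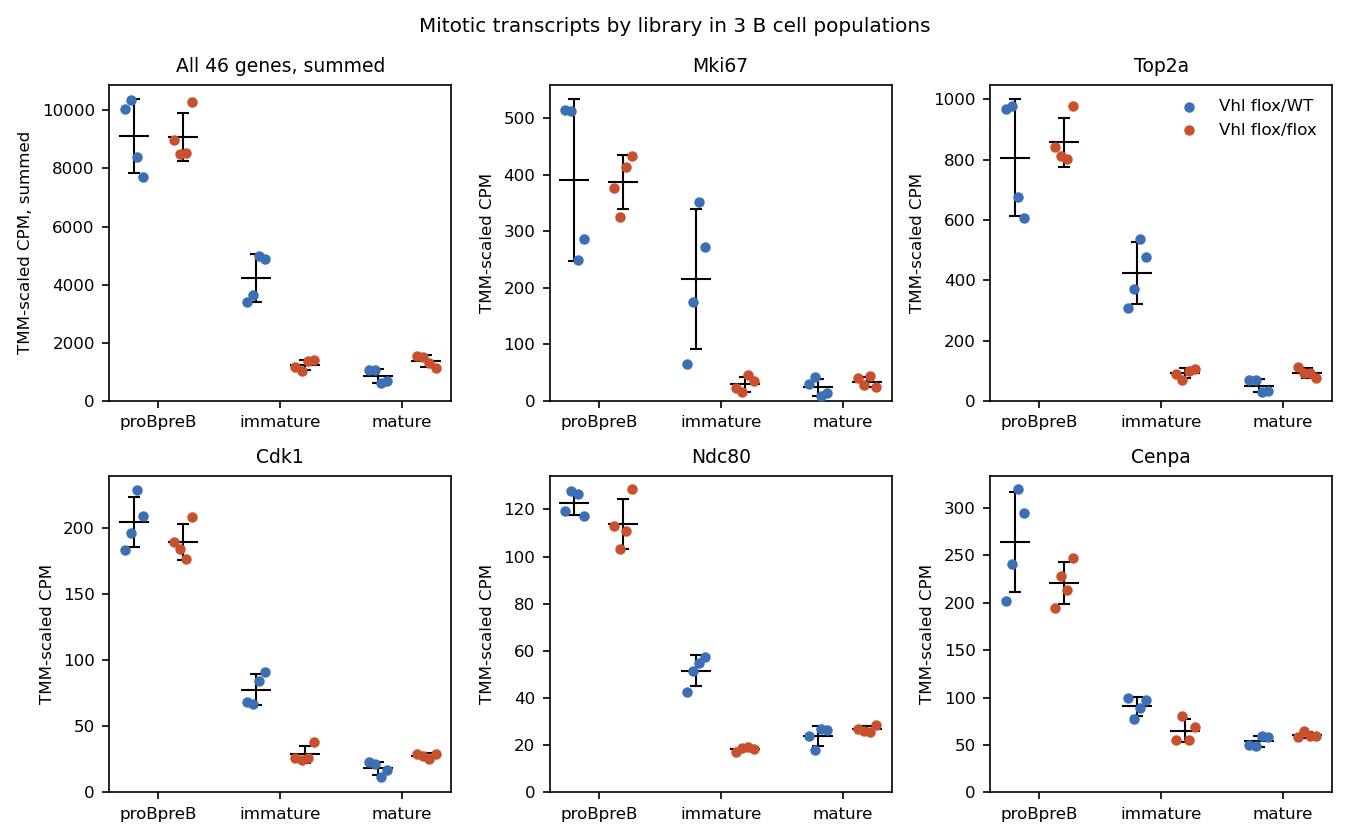
TMM-scaled CPM of the 46 genes summed and of 5 single genes in each of the 24 libraries (points), by population and genotype, with mean and SD (n = 4). In immature cells the flox/flox points lie below the flox/WT points except for Cenpa, whose ranges overlap.

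Among the cyclins, Cdk1 and their regulators, 6 of 6 genes fell in immature flox/flox cells. Ccna2, cyclin A2, stood at 228, 203, 253 and 271 CPM in flox/WT and 56.5, 68.5, 74.1 and 84.3 CPM in flox/flox libraries, which is a log2 change of -1.75 (SE 0.21, adjusted p = 6.47e-07). Ccnb1 went from 98.3, 83.6, 113 and 122 CPM to 32.6, 39.1, 42.7 and 53.2 CPM (-1.31, adjusted p = 6.10e-06). Every flox/flox library was below every flox/WT library for both cyclins. Cdk1, the kinase they activate, went from 68.8, 66.7, 84.3 and 91.1 CPM to 26.2, 24.6, 26.1 and 38.3 CPM (-1.43, adjusted p = 3.55e-08), and the highest flox/flox library, replicate 4, was still below the lowest control. Cks2 changed least of this group (-0.59, adjusted p = 0.0112) and Cdc25c most (-1.83, adjusted p = 6.35e-05).

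All 6 mitotic and checkpoint kinase genes fell. Plk1, a kinase needed for spindle poles and mitotic exit, was at 73.2, 68.97, 102 and 95.5 CPM in flox/WT and 23.7, 20.8, 30.5 and 32.2 CPM in flox/flox libraries, which is a log2 change of -1.66 (SE 0.37, adjusted p = 0.00261). Bub1b, which encodes the checkpoint protein BubR1, was at 118, 119, 150.4 and 143 CPM and 34.6, 32.1, 43.7 and 42.7 CPM in the same order (-1.79, adjusted p = 2.35e-06). The genotypes were apart in every library of both genes. Nek2 changed most of the kinases (-2.07) and Aurka, the kinase of the spindle poles, least (-1.07). The 3 genes of the chromosomal passenger complex, which corrects wrong attachments at the centromere, fell as well. Aurkb, the kinase of that complex, went from 97.1, 84.5, 95.9 and 114 CPM to 30.1, 28.2, 37.1 and 44.3 CPM (-1.48, adjusted p = 1.34e-07), while its partners Birc5 (survivin) and Cdca8 (borealin) changed by -1.78 and -1.85.

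All 8 centromere and kinetochore genes fell, with the widest range of any role. Cenpf (-2.73) and Cenpe, a kinetochore motor (-2.54), were at the far end. Ndc80, a subunit of the complex that holds microtubules, gave 42.6, 51.4, 54.9 and 57.4 CPM in flox/WT and 17.2, 18.98, 19.2 and 18.3 CPM in flox/flox libraries, which is a log2 change of -1.49 (SE 0.12, adjusted p = 1.95e-10). Its flox/flox libraries lay close together and none reached the controls. Its partners Nuf2, Spc24 and Spc25 changed by -1.82, -1.95 and -1.73. Cenpa had the smallest change of the 46: flox/WT libraries gave 99.3, 77.4, 88.7 and 97.7 CPM and flox/flox libraries 55.6, 81.1, 55.4 and 68.8 CPM, which is a log2 change of -0.48 (SE 0.14, adjusted p = 0.0121). Flox/flox replicate 2 lay above flox/WT replicate 2, so the ranges overlapped. The Cenpa call did not hold without flox/flox replicate 1 (adjusted p = 0.0597) or without flox/flox replicate 3 (adjusted p = 0.0616), while the other 45 were called in each of 15 alternative analyses.

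All 7 kinesin motors fell, from -2.22 for Kif11 to -1.56 for Kif20a, a motor of the cytokinetic midzone. Kif4, a chromosome-bound kinesin, was at 27.8, 45.98, 73.1 and 59.6 CPM in flox/WT and 8.26, 9.35, 14.3 and 15.3 CPM in flox/flox libraries, which is a log2 change of -2.13 (SE 0.27, adjusted p = 1.84e-06). The lowest control, replicate 1, was above the highest flox/flox library. The 5 spindle microtubule proteins also fell. Tpx2, which activates Aurora A on the spindle, went from 65.5, 82.2, 124 and 121 CPM to 20.5, 12.4, 29.7 and 39.8 CPM (-1.93, adjusted p = 0.000354). Nusap1, which bundles spindle microtubules, changed most (-2.12) and Prc1, which crosslinks the midzone, least (-1.48).

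The 3 cytokinesis genes fell, as did the 3 of mitotic protein destruction and the 5 of chromosome structure. Anln, anillin of the cleavage furrow, was at 28.7, 38.2, 40.2 and 30.6 CPM in flox/WT and 10.9, 5.72, 11.1 and 13.6 CPM in flox/flox libraries (-1.73, adjusted p = 8.26e-06). Cdc20 was at 99.5, 92.3, 106 and 123 CPM and 27.98, 29.02, 33.97 and 37.5 CPM (-1.71, adjusted p = 4.15e-08). Neither gene's ranges overlapped. Mki67 gave 64.9, 174, 352 and 272 CPM in flox/WT and 22.9, 15.5, 45.2 and 34.9 CPM in flox/flox libraries, which is a log2 change of -2.86 (SE 0.50, adjusted p = 0.000304). Its controls spread widely, with replicate 1 lowest and replicate 3 highest, and all stood above the flox/flox libraries. Top2a went from 309, 372, 537 and 476 CPM to 90.1, 69.9, 100.4 and 107 CPM (-2.21, adjusted p = 3.02e-07). Of the condensin genes, whose products compact mitotic chromosomes, Ncapd2 changed by -1.53, Smc2 by -1.27 and Ncapg by -1.90. Ncapd2 was at 134, 171, 232 and 232 CPM and 63.95, 55.7, 72.7 and 73.8 CPM, and Smc2 was at 69.1, 88.7, 111 and 93.5 CPM and 49.4, 22.6, 50.7 and 27.7 CPM.

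The immature change can be set beside the promoter matches. The median log2 change was -1.79 over the 31 genes with a CHR match (range -2.86 to -0.48). It was -1.82 over the 7 with no CHR match (range -2.54 to -0.59), of which Ccnb1, Cenpe, Cks2 and Nek2 had a CCAAT match. Among the stretches printed above, Birc5, with a match to neither element, changed by -1.78. Of those with matches to both, Top2a changed by -2.21, Kif23 by -1.79, Cdc20 by -1.71, Ccnb2 by -1.70, Cdk1 by -1.43 and Cenpa by -0.48. Cenpa was printed because its RNA changed least, so its value is not a comparison of promoters. Other spellings of the elements and other start sites were not searched.

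In the same immature libraries markers of other cells moved with the genotype, where 10.2% of all genes were higher and 10.5% lower. Erythroid markers summed to 2551 to 8104 CPM in flox/WT and 10305 to 19068 CPM in flox/flox libraries (7 of 13 higher, median log2 change 1.21), and neutrophil and monocyte markers to 8113 to 9582 CPM and 11853 to 15851 CPM (3 of 14 higher). Pro-B and pre-B markers summed to 263 to 333 CPM and 337 to 413 CPM (4 of 12 higher, 2 lower), and mature B markers to 10367 to 12904 CPM and 8561 to 9268 CPM (7 of 11 lower). Natural killer markers summed to 18.0 to 28.3 CPM in flox/WT and 32.1 to 42.7 CPM in flox/flox libraries (2 of 9 higher), and plasmacytoid dendritic cell markers to 879.5 to 993 CPM and 1107 to 1193 CPM (1 of 8 higher, 1 lower). For each of the lists in this paragraph the sums did not overlap between the genotypes. None of these markers was at 0 in either genotype, and their part in the mitotic gene result was not tested.

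In mature cells the difference ran the other way. All 46 log2 changes were above 0, with a median of 0.73 (1.66-fold higher, where the median over all genes was 0.01), and 30 of 46 genes were called higher in flox/flox mice and none lower (0 lower with DESeq2 too, which called 32 higher). Of all genes tested 9.69% were higher. An unadjusted p under 0.05 was reached by 37 of the 46. Summed levels were 1077, 1052, 600.4 and 671 CPM in flox/WT and 1531, 1523, 1303 and 1129 CPM in flox/flox libraries, a ratio of 161%. Flox/WT replicates 3 and 4 were both below replicates 1 and 2 for 40 of the 46 genes. The ranges of the genotypes were apart for 16 of the 46, where 9.01% of all genes were higher without overlap. The count was 16 without flox/WT replicate 3, 18 without flox/WT replicate 4, 17 without flox/flox replicate 1 and 15 when mature libraries alone were fitted. Kif15 and Ncapg held their call in the fewest of the 15 alternatives, 5 and 6. The 14 genes called in each of the 15 alternatives were Ccnb1, Ccnb2, Birc5, Aurka, Bub1b, Kif11, Kif23, Cdca3, Spc24, Spc25, Nuf2, Nusap1, Ect2 and Shcbp1.

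**Figure D4:**
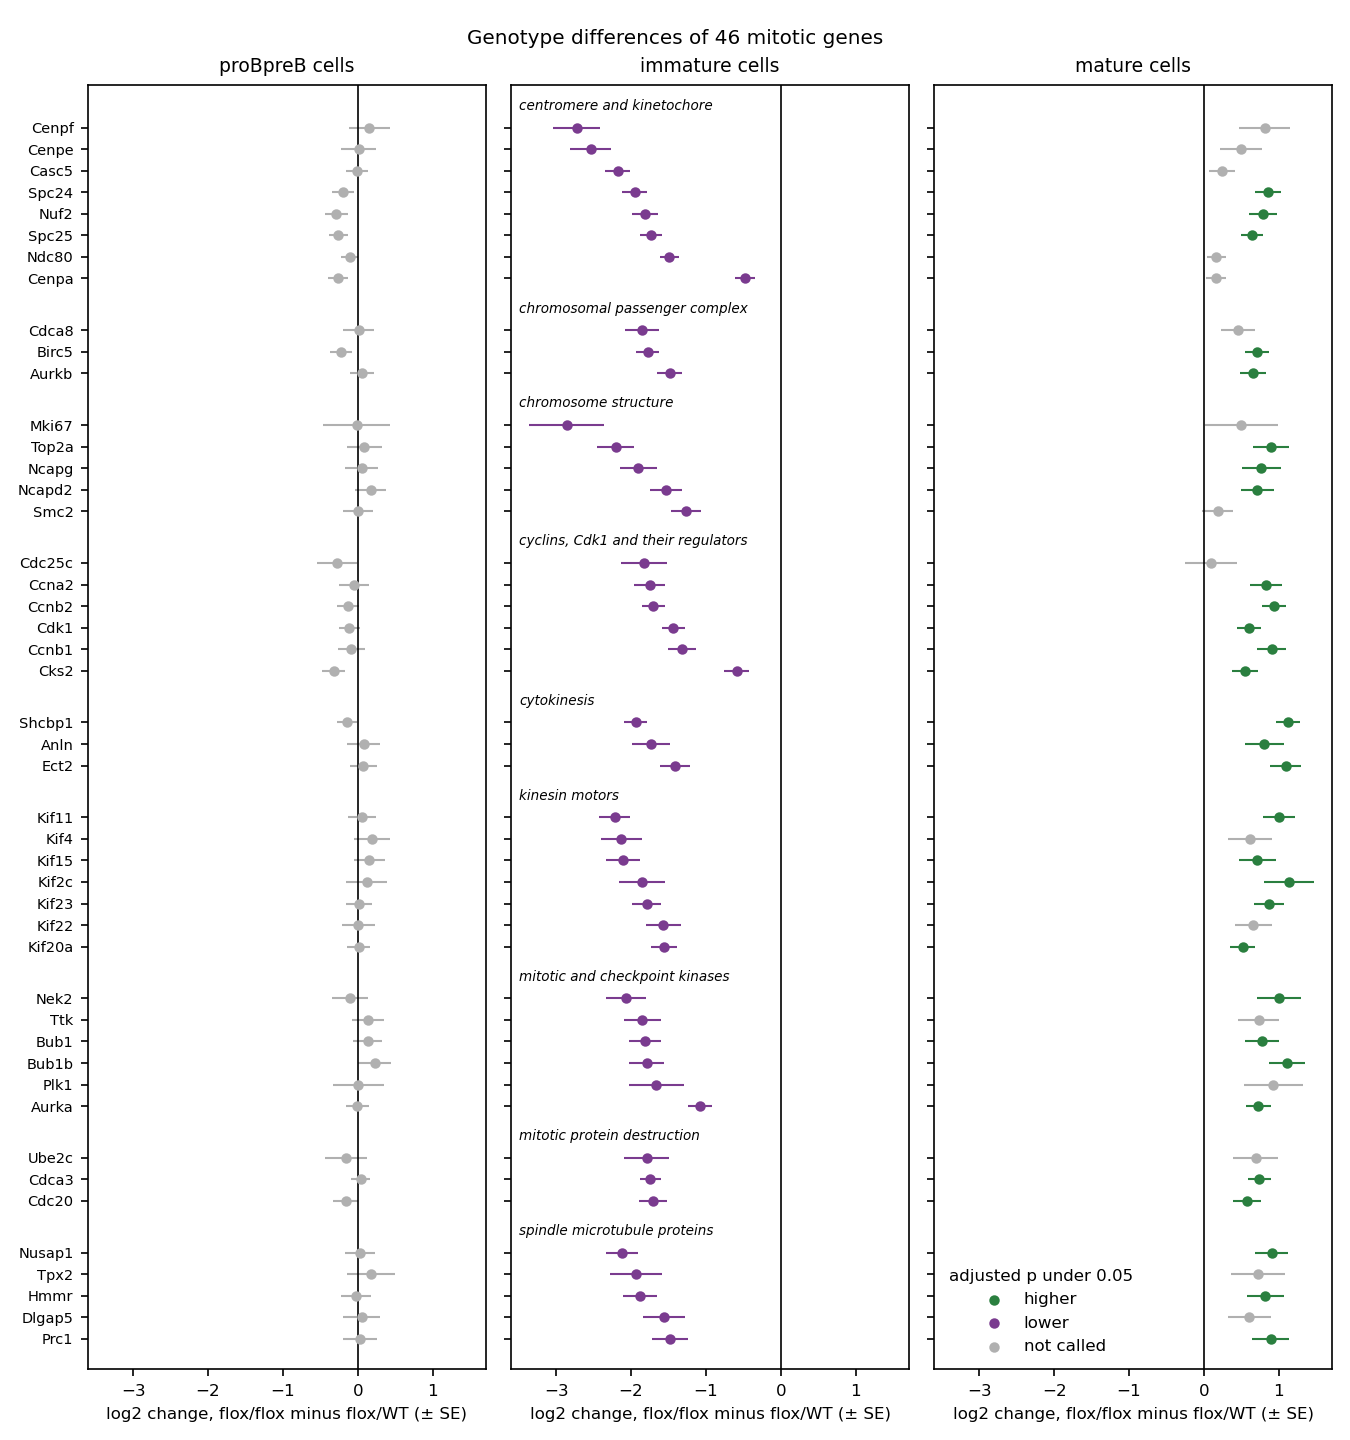
Log2 change of each of the 46 genes between flox/flox and flox/WT mice in proBpreB, immature and mature cells, with standard errors. The proBpreB values scatter around 0, the immature values run from -2.86 to -0.48 and the mature values from 0.09 to 1.14.

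Of the cyclins, Cdk1 and their regulators, 5 of 6 rose in mature flox/flox cells. Ccnb1 stood at 32.8, 35.3, 16.9 and 21.9 CPM in flox/WT and 51.96, 53.6, 61.5 and 32.5 CPM in flox/flox libraries, which is a log2 change of 0.90 (SE 0.19, adjusted p = 0.00137). Flox/flox replicate 4 lay within the control range. Ccna2 went from 64.4, 50.3, 29.6 and 29.7 CPM to 94.6, 82.7, 81.4 and 49.996 CPM (0.83, adjusted p = 0.00754), again with replicate 4 among the controls. Cdk1 went from 22.7, 21.5, 11.9 and 16.9 CPM to 29.2, 27.4, 25.2 and 28.97 CPM (0.60, adjusted p = 0.00918) without overlap. Cdc25c did not pass (0.09, adjusted p = 0.890) and was the 1 gene of the list whose sign differed in any alternative.

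Of the kinases 4 of 6 rose. Bub1b gave 24.2, 24.9, 12.4 and 13.4 CPM in flox/WT and 50.4, 47.2, 30.01 and 33.1 CPM in flox/flox libraries, with no overlap and a log2 change of 1.11 (SE 0.24, adjusted p = 0.00208). Plk1 gave 24.7, 20.4, 5.599 and 5.43 CPM and 29.4, 36.5, 24.8 and 14.8 CPM (0.93, adjusted p = 0.114). Its controls fell into a higher pair and a lower pair, and it did not pass. Ttk, the checkpoint kinase Mps1, did not pass either (0.73, adjusted p = 0.0654). In the passenger complex Aurkb (29.9, 23.3, 14.1 and 21.3 CPM against 37.4, 43.5, 32.4 and 26.5 CPM, 0.66, adjusted p = 0.00918) and Birc5 (0.71) rose, while Cdca8 was at 0.45 (adjusted p = 0.191).

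The kinetochore group had the fewest calls for its size, 3 of 8: Spc24 (0.85), Nuf2 (0.79) and Spc25 (0.64), all subunits of the Ndc80 complex. The fourth subunit, Ndc80 itself, was at 23.8, 17.9, 26.997 and 26.6 CPM in flox/WT and 26.97, 25.8, 25.8 and 28.6 CPM in flox/flox libraries, which is a log2 change of 0.17 (SE 0.12, adjusted p = 0.377). Cenpa was at 49.6, 48.7, 59.8 and 58.5 CPM and 58.5, 65.3, 59.5 and 59.5 CPM (0.16, adjusted p = 0.453). These were the 2 genes of the list in which flox/WT replicates 3 and 4 both stood above replicates 1 and 2. Cenpe (0.49), Casc5, the scaffold of the outer kinetochore (0.24), and Cenpf (0.81, with no overlap) did not pass.

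Of the 7 kinesins 5 rose, from 0.52 for Kif20a to 1.14 for Kif2c, which depolymerises microtubules at centromeres. Kif11 rose by 1.00 and Kif23, a midzone motor, by 0.86. Kif4 was at 8.32, 11.7, 5.35 and 7.24 CPM in flox/WT and 16.7, 15.2, 8.67 and 9.17 CPM in flox/flox libraries (0.62, adjusted p = 0.156) and did not pass, nor did Kif22 (0.66). Of the 5 spindle proteins Nusap1 (0.90), Prc1 (0.89) and Hmmr (0.82) rose. Tpx2 gave 27.1, 18.7, 10.6 and 9.43 CPM and 33.9, 37.3, 19.02 and 17.8 CPM (0.73, adjusted p = 0.187). Tpx2 and Dlgap5 (0.61) did not pass.

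All 3 cytokinesis genes rose: Shcbp1, a midbody protein (1.12), Ect2, which activates RhoA at the furrow (1.09), and Anln. Anln was at 14.96, 8.805, 4.11 and 5.904 CPM in flox/WT and 18.6, 14.3, 13.4 and 12.3 CPM in flox/flox libraries, which is a log2 change of 0.80 (SE 0.26, adjusted p = 0.0336). It was called in 8 of the 15 alternatives. Cdc20 gave 28.8, 37.2, 15.8 and 22.5 CPM and 43.6, 48.8, 27.9 and 35.4 CPM (0.58, adjusted p = 0.0303, called in 10 of the 15). Cdca3, which recruits a ubiquitin ligase at mitotic entry, rose (0.74), and the ubiquitin-conjugating enzyme gene Ube2c did not pass (0.69, adjusted p = 0.132). In the chromosome structure group 3 of 5 rose. Top2a was at 69.7, 68.7, 28.1 and 34.3 CPM and 114, 92.4, 92.3 and 74.7 CPM without overlap (0.90, adjusted p = 0.0123). Ncapd2 was at 71.04, 55.6, 35.3 and 44.1 CPM and 95.002, 106, 60.8 and 76.03 CPM (0.71, adjusted p = 0.0260), and the condensin gene Ncapg rose as well (0.77). Mki67 (30.6, 42.01, 8.83 and 14.9 CPM against 39.96, 27.7, 43.4 and 24.6 CPM) had a log2 change of 0.50 (adjusted p = 0.538) and Smc2 (48.2, 54.1, 31.6 and 37.2 CPM against 51.5, 43.05, 53.7 and 46.1 CPM) one of 0.18 (adjusted p = 0.589), and neither passed.

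Markers of other cells were measured in the mature libraries too. Erythroid markers summed to 3835 to 10783 CPM in flox/WT and 7828 to 21217 CPM in flox/flox libraries (3 of 13 higher), and 0 of 14 neutrophil and monocyte markers passed (11418 to 17876 CPM and 12557 to 20421 CPM). Pro-B and pre-B markers there summed to 87.8 to 127 CPM and 204 to 245 CPM without overlap (5 of 12 higher), led by Lef1 (2.15), Myb (0.83) and Igll1, surrogate light chain (1.79). Natural killer markers summed to 34.6 to 45.0 CPM and 62.7 to 78.6 CPM (3 of 9 higher). Mature B markers summed to 23281 to 25549 CPM in flox/WT and 16975 to 19517 CPM in flox/flox libraries, also without overlap (3 of 11 lower, 0 higher). Over all genes tested, 9.69% were higher and 6.62% lower in mature cells. Again no such marker was at 0, and their part in the result was not tested.

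The difference between genotype effects was tested directly, with the mice's libraries in 1 fit. Between immature and proBpreB cells the effect was lower for 44 of 46 genes, where 6.14% of all genes were lower, with a median difference of -1.73. Cenpa (-0.22, adjusted p = 0.534) and Cks2 (-0.26, adjusted p = 0.528) did not pass. Between mature and immature cells the effect was higher for all 46, where 5.51% of all genes were higher, with a median difference of 2.56 and a range from 0.64 (Cenpa, adjusted p = 0.0378) to 3.54 (Cenpf). Between mature and proBpreB cells it was higher for 10 of 46, where 2.27% of all genes were higher, with a median of 0.73. The 10 were Ccnb1, Ccnb2, Birc5, Cdca3, Spc24, Spc25, Nuf2, Ect2, Shcbp1 and Cks2. With the mouse as a block 6 were called, with DESeq2 16, and without 1 mouse between 5 and 15. It was 5 without flox/flox mouse 2, flox/WT mouse 3 or flox/WT mouse 4, and 6 without flox/flox mouse 1 or 3. These differences share libraries with each other and with the single-population comparisons.

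Within groups the 46 genes tended to deviate together from library to library. Over the 24 libraries, the deviations of log2 CPM from each group's mean had a median Pearson correlation of 0.60 over 1035 gene pairs, and 957 pairs were above 0. This describes libraries that share depth and scaling. Plk1, Kif22 and Top2a followed the others most closely, with a median correlation of 0.77 each. Cenpa (-0.34) and Ndc80 (-0.18) had medians below 0. Within groups Mki67 spread most (SD 0.71 on the log2 scale) and Ndc80 least (0.15). Among the flox/WT mice, mice 3 and 4 were both below mice 1 and 2 for 32 of the 46 genes in proBpreB cells and for 40 in mature cells. In immature cells the same mice were both above mice 1 and 2 for 39 genes and both below for none. This pattern was noticed in the data and was not tested.

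Related gene lists were measured beside the 46. Of 56 other mitotic genes tested, 51 fell in immature flox/flox cells, with a median log2 change of -1.59 and with Cep55, an abscission protein (-2.18), Trip13, a checkpoint ATPase (-1.51), and Kif18a, a kinesin (-1.51), leading by adjusted p. Only Cdc25b, a phosphatase that activates Cdk1, rose (0.64, adjusted p = 0.00165), and Cenpq, Cenpu, Kifc1 and Pttg1 did not pass. In mature cells 25 of the 56 rose, led by Trip13 (0.93), Pbk (1.17) and Zwint (0.61), and Pttg1, securin (-0.50), and Cenpu (-0.43) fell. The median was 0.63. None of the 56 passed in proBpreB cells, where 6.13% of all genes tested did. Of all genes tested, 10.5% were lower and 10.2% higher in immature cells, and 9.69% were higher and 6.62% lower in mature cells. The 1 that rose in immature cells and the 2 that fell in mature cells were below these shares.

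Of 20 genes of S phase tested, 18 fell in immature flox/flox cells (median -1.08), led by Prim1, a DNA primase subunit (-1.71), Tyms, thymidylate synthase (-1.45), and Pole, a DNA polymerase (-1.84). In mature cells 7 of 20 rose (median 0.25), led by Rrm2, a ribonucleotide reductase subunit (1.08), Gins2 (0.70) and Tyms (0.58). Of the subunits of the anaphase-promoting complex, whose activity is set largely after transcription, 5 of 15 were lower in immature cells (median -0.06), led by Anapc5 (-0.59), Anapc15 (-0.58) and Cdc23 (-0.47), and 2 were lower in mature cells, Anapc15 (-0.47) and Anapc16 (-0.47), with a median over the list of 0.07. Over all genes 10.5% were lower in immature cells and 6.62% were lower in mature cells. Of 11 cohesin and separase regulators 2 fell in immature cells (median -0.20) and 1 rose in mature cells (median 0.02), where 10.5% of all genes fell and 9.69% rose, so these counts are near the share over all genes. Esco2, which acetylates cohesin in S phase, fell by 2.11 and Stag2, a cohesin subunit, fell by 0.40 in immature cells, and Esco2 rose in mature cells (0.74).

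Among 23 transcription factors of the mitotic and E2F programmes, 9 fell and 1 rose in immature cells (median -0.13). E2f7, an E2F repressor (-2.22), Rbl1, the pocket protein p107 (-0.98), and Foxm1, an activator of G2 genes (-1.66), led those that fell, and E2f5 was the 1 that rose (0.52). In mature cells 4 rose and none fell (median 0.28), led by E2f2 (0.69), E2f1 (0.77) and Foxm1 (1.05). The shares over all genes tested were 10.5% lower and 10.2% higher in immature cells, and 9.69% higher and 6.62% lower in mature cells. The 1 that rose in immature cells was thus below the share over all genes. Foxm1 stood at 19.8, 37.6, 52.0 and 45.2 CPM in immature flox/WT and 10.4, 8.51, 13.0 and 16.9 CPM in immature flox/flox libraries, so the ranges did not overlap. None of the S phase, anaphase-promoting complex, cohesin or transcription factor lists had a call in proBpreB cells, where 6.13% of all genes tested had one. A CHR match was present in 58.0% of the matched promoters of the other mitotic genes, in 31.2% of the S phase genes and in 14.3% of the anaphase-promoting complex subunits.

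Of the remaining marker lists, plasma cell markers had 2 higher and 3 lower of 8 in immature cells and 1 and 1 in mature cells, with Tnfrsf17 at 0 in immature flox/flox and mature flox/WT libraries. T cell markers had 1 of 7 lower in immature cells and 0 of 7 in mature cells, plasmacytoid dendritic cell markers 1 higher and 1 lower of 8 in mature cells, and stroma and endothelium markers 0 of 6 in immature cells and 1 higher and 1 lower in mature cells. B lineage markers had 1 higher and 1 lower of 8 in immature cells and 3 lower in mature cells. Over all genes tested, 10.2% were higher and 10.5% lower in immature cells, and 9.69% were higher and 6.62% lower in mature cells. In lists this short, 1 call in a direction is close to these shares. In proBpreB cells, where none of the 46 genes was called, 8 of 11 mature B markers were lower in flox/flox mice and 1 was higher, and 3 of 8 B lineage markers were lower, where 2.75% of all genes were lower.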

How the data were processed

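Cells were sorted into lysis buffer, and libraries were made with a SMARTer low input kit, per the labels' protocols. The submitters' processing notes name CASAVA, FastQC, Trim Galore, HISAT2, featureCounts, DESeq2 and the build mm10. The aligner's version, the annotation and the strand setting were not given in the sources used here. Reads of antisense, overlapping or near-identical genes may therefore be shared between them. The authors deposited whole-number counts per gene symbol, which were used as they stand. The authors' normalised table was not used here. Genes were filtered with filterByExpr, scaled by TMM and fitted in 1 quasi-likelihood model of 24 libraries in 6 groups with 18 residual degrees of freedom (edgeR 4.0.16, limma 3.58.1, R 4.3.3). P-values were adjusted by Benjamini-Hochberg over 12850 genes in each of 10 comparisons at 0.05, and the script was first tested on simulated data. The comparisons were the genotype effect in 3 populations, 4 steps between populations and 3 differences of genotype effects.

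The 46 genes and all gene lists were chosen with earlier results of these data known. Values by library were given for 16 genes that cover the 9 roles. Named beside them were the members with the largest and smallest change in a role, members that did not share the call of most others, and from each other list up to 3 genes of smallest adjusted p in each direction. The 3 libraries of a mouse share its number in the labels. Over the 24 pairs of libraries that share a mouse, the correlation of their deviations from the group means ran from 0.0342 to 0.325, with 16 pairs above 0.1. Alternatives were RLE size factors, no filter, a stricter filter (10 CPM in 4 libraries), DESeq2 1.42.0, a fit of only the groups compared, a block and leaving out each mouse. The block was the mouse for steps between populations and for differences of genotype effects. For the genotype effect within a population it was the replicate number, which joins different mice. Mouse sex as a covariate (1 male mouse in each genotype, read from Xist and Ddx3y) was added after seeing the data. Replicates were separate mice, and no pair of libraries of the same group agreed within sampling noise (lowest chi-square per degree of freedom 5.82).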

Additional observations from a re-analysis of the deposited data

Results flagged for a closer look

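In 4 of 102 sets of 4 libraries looked at for genes given by library, 1 library stood apart from the other 3 by Dixon's 95% criterion. Chance alone flags about 1 set in 20. Ccnb1 was at 320.1 CPM in proBpreB flox/flox replicate 4, with the nearest library at 283 CPM. Ncapd2 was at 414 CPM in the same library, with the nearest at 331 CPM. Cdk1 was at 38.3 CPM in immature flox/flox replicate 4, with the nearest at 26.2 CPM. Cenpa was at 65.3 CPM in mature flox/flox replicate 2, with the nearest at 59.5 CPM.

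Genotype effects differed between populations by a direct test of the difference in edgeR. The effect in immature cells minus that in proBpreB cells was called for 44 of the 46 genes, the effect in mature minus that in immature cells for 46, and the effect in mature minus that in proBpreB cells for 10. For Mki67 the first of these differences was -2.85 and the second 3.36 on the log2 scale. For Top2a they were -2.30 and 3.10, for Cdk1 -1.32 and 2.03, and for Kif11 -2.27 and 3.22. Ccnb1 differed in all 3, by -1.23, 2.22 and 0.99. Cenpa differed between mature and immature cells, by 0.64.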

How the results depend on the processing

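The immature result held in number under every alternative run: 45 or 46 of the 46 genes were called lower. The proBpreB count was 0 under every alternative. The mature count of 30 was 15 when only the groups compared were fitted and ran from 16 to 35 when 1 mouse was left out. Those fits hold fewer libraries, and the cause was not tested further. The count of differences between mature and proBpreB effects was 10, was 6 with the mouse as a block, 16 with DESeq2, and 5 to 15 when 1 mouse was left out. With the replicate number as a block, the immature count stayed at 46 and the mature count was 29. That block joins different mice by number alone. No other count moved by over 1.5 times. With sex of the mouse as covariate, chosen after seeing the data, the mature count was 30. Median log2 changes ran from -1.87 to -1.70 in immature cells and from 0.59 to 0.88 in mature cells when 1 mouse was left out. Depth was not limiting for detection, since every gene had at least 13 counts in each library.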
